A study of Mus musculus with 9 samples.

Results

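The cytokines of T cells were measured in 9 mouse lungs with Agilent arrays. All non-control probes whose transcript accession belongs to *Ifng*, *Il21*, *Il17a*, *Il17f*, *Il22*, *Il4*, *Il5*, *Il13*, *Il10* or *Il2* were taken, which gave 13 probes of 10 genes among 56601 probes tested and 22905 genes that could be named through RefSeq. *Il21*, *Il22* and *Il2* had 2 probes each, and for these the probe with the higher mean signal is called the first probe. In the lung grafts, *Ifng*, *Il21* and *Il10* were higher than in sham lungs, both in grafts with airway fibrosis and in grafts without it, where *Il21* stands by its first probe and the second probe did not rise, and where the call of *Il10* in grafts without fibrosis was missed by 13 of 22 alternative settings. *Il4* was near the limit of detection in all groups, and the cytokines of type 17 and type 2 helper T cells other than *Il4* were mostly not well above background.

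T cells act on other cells mainly through secreted cytokines, and helper T cells are commonly divided by the cytokines they make. Type 1 cells make interferon gamma (*Ifng*), which activates macrophages and induces genes of antigen presentation, and which natural killer cells and CD8+ T cells make as well. Type 2 cells make interleukins 4, 5 and 13, which drive antibody class switching, eosinophils and mucus; type 17 cells make interleukins 17A, 17F and 22, which act on epithelium and recruit neutrophils. Follicular helper T cells make interleukin 21, which drives B cells to become plasma cells. Interleukin 10 restrains macrophages and T cells, and interleukin 2 is the growth factor that activated T cells make and regulatory T cells consume. In transplanted lungs these cytokines are studied because T cells that recognize donor antigens enter the graft.

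Left lungs of C57BL/10 donors were placed orthotopically into C57BL/6 recipients, a pairing that shares its MHC and differs in minor histocompatibility antigens. Grafts taken on day 21 were sorted by histology into an OB group with obliterative bronchiolitis, which is fibrous closure of the small airways, and a non-OB group without it, and the sham group had only the chest opened. Each group held 3 lungs of young adult male mice, 1 array each, and the study's supplement gives an opioid analgesic after surgery as the drug that was administered. Every sample, shams included, is labelled with donor C57BL/10 and recipient C57BL/6, whereas the study's methods say that both strains served as sham mice. Which sham lung came from which strain was not used here. Part of each lung went to pathology and part to RNA, so that the tissue scored for fibrosis is not the tissue on the array.

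The values are scaled intensities on the log2 scale, and a probe counts as detected on an array where the scanner software marked its spot as well above background. The lowest such signal was between 3.96 and 4.99 on the 9 arrays, and 58.6% to 69.6% of all spots were well above background. OB 1, non-OB 1, sham 1 and sham 2 shared a slide, OB 2 lay with non-OB 3, OB 3 with non-OB 2, and sham 3 was on a slide of its own. The lung epithelial markers were abundant in every group, with a summed level of 9 genes between 19.6 and 20.4. That sum is weighted to the brightest genes. The median log2 fold change of the 9 against sham was -0.73 in OB and -0.22 in non-OB, with *Hopx* at -1.82 in OB (adjusted p = 0.00519 from limma). Levels of different probes are not compared with each other, since each probe has its own brightness.

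Of the 10 genes, 9 have an entry in a table of promoters from RefSeq, and the table does not list *Il10*. The windows of *Ifng*, *Il21* and *Il4* are shown because these are the listed cytokines that were well above background on all 3 OB arrays. Each run holds the 250 bases before the annotated start in GRCm38.p6, read 5′ to 3′ on the strand of the gene. Capitals mark matches to 5 motifs, which are GGAAA (the core of sites for nuclear factor of activated T cells), TGANTCA (AP-1), TTCNNNGAA (the STAT site GAS), GGTGTGA (part of a T-box site) and TATAAA (the TATA box), the first 4 searched on both strands and the last on the strand of the gene.
Ifng, chr10:118440796-118441045, plus strand: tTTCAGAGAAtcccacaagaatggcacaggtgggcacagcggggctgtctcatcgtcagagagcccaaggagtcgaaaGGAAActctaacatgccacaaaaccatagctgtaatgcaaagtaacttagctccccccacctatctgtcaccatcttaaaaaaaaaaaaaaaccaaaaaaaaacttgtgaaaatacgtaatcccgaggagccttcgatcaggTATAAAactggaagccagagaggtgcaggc
Il21, chr3:37232637-37232886, minus strand: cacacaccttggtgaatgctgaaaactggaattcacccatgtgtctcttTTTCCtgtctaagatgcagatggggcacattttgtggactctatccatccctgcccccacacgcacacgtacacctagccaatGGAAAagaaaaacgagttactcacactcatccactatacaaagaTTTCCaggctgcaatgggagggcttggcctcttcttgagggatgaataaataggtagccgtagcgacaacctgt
Il4, chr11:53618666-53618915, minus strand: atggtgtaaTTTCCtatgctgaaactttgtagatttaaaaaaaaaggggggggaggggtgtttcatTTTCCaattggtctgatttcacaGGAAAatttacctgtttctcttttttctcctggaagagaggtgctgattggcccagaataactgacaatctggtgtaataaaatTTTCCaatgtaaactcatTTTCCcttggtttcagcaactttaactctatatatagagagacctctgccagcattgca
The *Ifng* window held 1 match to GGAAA, 1 to TTCNNNGAA and 1 to TATAAA, the last of them starting 30 bases before the start. The *Il21* window held 3 matches to GGAAA and the *Il4* window 5, and neither held another of the motifs. *Il4* has a second start in the table, and the window of the start farther upstream is the one shown. Of 32851 promoter windows of this length, 55.6% held GGAAA, 7.02% TTCNNNGAA, 6.75% TGANTCA, 3.33% GGTGTGA and 7.59% TATAAA. The marked matches do not overlap each other. Along the genome, *Il17a* and *Il17f* are neighbours, as are *Il2* and *Il21* and *Il4* and *Il13*, and 1 protein-coding gene lies between *Il13* and *Il5* and 1 between *Il22* and *Ifng*.

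**Figure D1:**
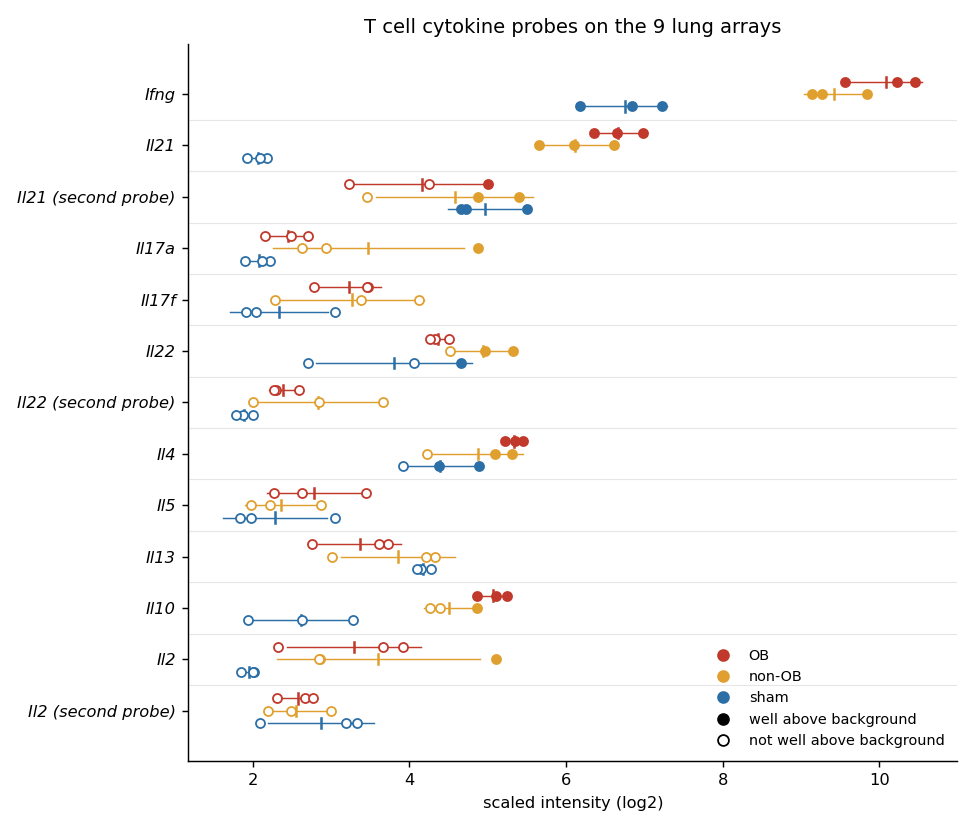
Scaled intensity (log2, horizontal axis) of the 13 cytokine probes (rows) on each of the 9 arrays, with a point per array, a tick at the group mean and a line of 1 SD to either side. Filled points are well above background: *Ifng* is filled in all 9 lungs, the first *Il21* probe in all 6 grafts and no sham lung, and *Il17f*, *Il5* and *Il13* on no array.

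*Ifng*, the cytokine of type 1 helper T cells, was the only one of the 13 probes that was well above background on all 9 arrays. Its log2 intensity was 9.56, 10.23 and 10.46 in OB 1 to 3, 9.84, 9.27 and 9.13 in non-OB 1 to 3, and 6.17, 6.84 and 7.23 in sham 1 to 3. All 6 grafts lay above all 3 sham lungs, and the OB and non-OB grafts overlapped. On the linear scale the mean scaled intensity was 1123 in OB, 699 in non-OB and 112 in sham. The log2 fold change against sham was 3.34 (SE 0.36, adjusted p = 0.00307 from limma) in OB and 2.67 (SE 0.36, adjusted p = 0.0109 from limma) in non-OB. Without sham 2 the rise in non-OB was 2.71 and no longer passed the threshold (adjusted p = 0.0553), whereas the rise in OB was called without any single array.

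*Il21*, the cytokine of follicular helper T cells, was detected in every graft and in no sham lung by its first probe. The log2 intensity of that probe was 6.35, 6.64 and 6.98 in OB, 6.61, 5.65 and 6.10 in non-OB, and 2.19, 2.09 and 1.92 in sham. The grafts stood clear of the sham lungs, and OB and non-OB overlapped. Because no sham lung gave a signal well above background, only an approximate lower bound of the change can be stated, which takes as the sham level of each array the lowest signal that counted as detected there, or the probe's own where that was higher. The bound is not strict, since some readings above that lowest signal were not well above background. In sham 2, for example, *Il13* read 4.28 and was not detected, while the lowest detected signal was 4.02. This holds for each fold given as at least a value. In OB the first probe of *Il21* exceeded sham by at least 6.11-fold (limma, adjusted p = 0.000818), and in non-OB it was at least 4.20-fold higher (limma, adjusted p = 0.00171). With normexp and quantile normalization the log2 change of the first probe was 1.02 in OB and 0.72 in non-OB, the latter below 2-fold and not called, and the non-OB call was also lost with the slide as a fixed block and by the methods' t-test with Benjamini-Hochberg adjustment. The slide block and the t-test each called 0 of all probes in non-OB. The second *Il21* probe, annotated to the same transcript, did not show the rise of the first. It read 5.01, 4.26 and 3.23 in OB, 4.87, 3.45 and 5.40 in non-OB and 4.66, 5.50 and 4.73 in sham, and was well above background on 1 OB, 2 non-OB and all 3 sham arrays. Its log2 fold change was -0.80 in OB (SE 0.60, adjusted p = 0.462 from limma) and -0.39 in non-OB (SE 0.60, adjusted p = 0.743 from limma), so that the pair of probes disagreed in sign, and where each lies on the transcript is not given in the sources used here.

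*Il10*, which encodes the cytokine that restrains macrophages and T cells, was detected on all 3 OB arrays, on 1 non-OB array and on no sham array. Its log2 intensity was 5.25, 4.86 and 5.11 in OB, 4.86, 4.39 and 4.26 in non-OB and 2.62, 1.93 and 3.28 in sham. All grafts lay above all sham lungs, and the OB grafts also lay above the non-OB grafts, by a gap of less than 0.01 between OB 2 and non-OB 1. *Il10* was at least 2.03-fold higher in OB than in sham (adjusted p = 0.00749 from limma). In non-OB it was called as well (adjusted p = 0.0317 from limma), but no fold is given, since 2 of the 3 non-OB readings were themselves not well above background. This call was not made in 13 of 22 alternative settings, among them the fits without OB 3, any non-OB array, sham 1 or sham 2. With another background correction and normalization together, normexp with an offset of 50 and quantile normalization, the log2 change of *Il10* in OB was 0.33 in place of the fitted 2.46, and it was not called (adjusted p = 0.112); nor was it by the methods' t-test with Benjamini-Hochberg adjustment.

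*Il4*, the cytokine that directs type 2 helper T cells, was detected on all 3 OB arrays, on 2 non-OB and on 2 sham arrays. Its log2 intensity was 5.34, 5.23 and 5.45 in OB, 5.09, 4.23 and 5.31 in non-OB and 3.92, 4.38 and 4.89 in sham. All OB lungs lay above all sham lungs, while the non-OB lungs overlapped with both. The log2 fold change in OB was 0.94 (SE 0.34, 95% interval 0.16 to 1.72), which missed the threshold (limma, adjusted p = 0.170), and in non-OB it was 0.48 (SE 0.34, adjusted p = 0.447 from limma). *Il5* and *Il13*, the other type 2 cytokines, were well above background on no array. *Il5* ranged from 1.83 to 3.45 and *Il13* from 2.76 to 4.32 over the 9 lungs, and for neither can a fold change be given.

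Of the type 17 cytokines, each probe was well above background in 3 lungs or fewer. *Il17a*, the main product of type 17 helper T cells, was well above background in non-OB 1 alone, at a log2 intensity of 4.87, and the other 8 lungs lay between 1.90 and 2.93. *Il17f* was well above background on no array and ranged from 1.92 to 4.12. *Il22*, which acts on epithelial cells, read 4.32, 4.26 and 4.51 in OB, 5.33, 4.52 and 4.96 in non-OB and 4.65, 2.71 and 4.05 in sham with its first probe. That probe was well above background in non-OB 1, non-OB 3 and sham 1 and in no OB lung, and its second probe was well above background on no array. The log2 fold change of the first probe against sham was 1.13 in non-OB (SE 0.46, adjusted p = 0.268 from limma). This value rests in part on the readings of non-OB 2, sham 2 and sham 3, which were not well above background. No type 17 cytokine was called in any comparison.

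*Il2*, the growth factor of activated T cells, was well above background in non-OB 3 alone, at 5.10 with its first probe. The other 8 lungs lay between 1.84 and 3.91 with that probe, and its second probe was well above background on no array. Neither probe was called, with adjusted p from 0.257 to 0.669 in OB and non-OB against sham in limma.

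Over all 10 genes, 3 were called higher and none lower than sham in the OB group, where a call needs an adjusted p under 0.05 over all probes and a change of at least 2-fold. Of all probes tested, 2.72% were called higher and 2.43% lower in this comparison. The same 3 genes, *Ifng*, *Il21* and *Il10*, were called higher in the non-OB group, where 1.81% of all probes were called higher and 0.710% lower. Both comparisons share the 3 sham lungs. With all 6 grafts in 1 group these 3 genes were called again, against 3.27% of all probes, with a log2 fold change of 3.00 for *Ifng* (SE 0.35, adjusted p = 0.00167 from limma), at least 5.06-fold for *Il21* (adjusted p = 0.000177) and an adjusted p of 0.00502 for *Il10*, which was well above background in 4 of the 6 grafts. In 6 of the 13 probes all OB lungs lay above all sham lungs, which held for 20.0% of all probes, and 2 of the 6, the second *Il22* and the first *Il2* probe, were well above background in neither group, so that their order is one of background signal. With the slide as a fixed block 4 of all 56601 probes were called higher in OB and 0 lower. No cytokine was among them, with adjusted p from limma of 0.0651 for *Ifng* and 0.0604 for *Il21* and for *Il10*. Only slide 1 holds both grafts and sham lungs, while the OB and non-OB pairs on slides 2 and 3 also enter that estimate for OB. On slide 1 itself OB 1 exceeded the mean of the 2 sham lungs by 3.05 for *Ifng* on the log2 scale. The first *Il21* probe and *Il10* were well above background in OB 1 and in neither sham lung there. The second *Il21* probe was well above background in OB 1, sham 1 and sham 2. In the same fit over all grafts the rise of *Ifng* was 3.19 and was not called (adjusted p = 0.0518), and those of *Il21* and *Il10* were.

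**Figure D2:**
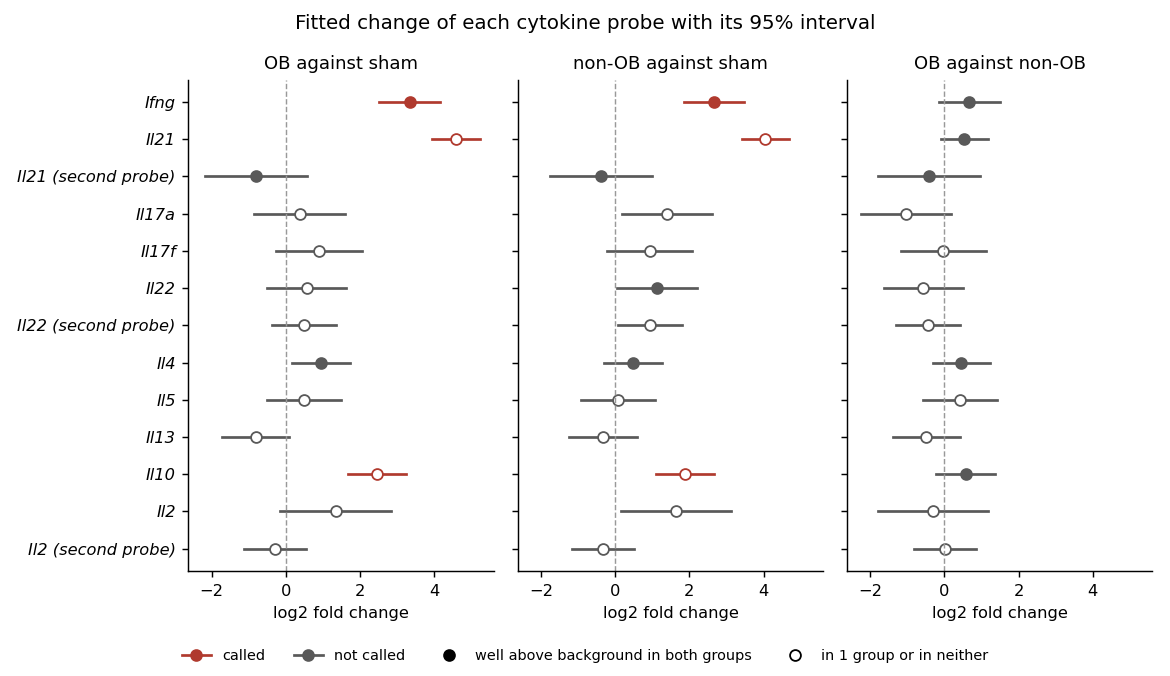
Fitted log2 fold change (horizontal axis) of each of the 13 cytokine probes with its 95% interval, in 3 comparisons; red marks calls, and open points mark probes that were well above background in 1 of the groups compared or in neither. *Ifng*, the first *Il21* probe and *Il10* are red in both comparisons with sham, and no probe is red between OB and non-OB, where the 3 estimates are 0.67, 0.54 and 0.57.

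Between the OB and non-OB grafts none of the 13 probes was called in limma, none had an unadjusted p under 0.05, and none of all probes was called either (0%), although 307 of them were higher and 795 lower in OB at an unadjusted p under 0.05. On the log2 scale *Ifng* differed by 0.67 (95% interval -0.15 to 1.49) and the first *Il21* probe by 0.54 (-0.10 to 1.18). *Il10* differed by 0.57 (-0.22 to 1.36) and *Il4* by 0.46 (-0.32 to 1.24), each of these with an adjusted p of 1.00 from limma. These intervals hold 0 and reach above 2-fold, so that neither a difference nor equal levels can be read from 3 lungs a group. The second *Il21* probe went the other way, by -0.41 (-1.78 to 0.96). *Il10* was the 1 probe with all OB lungs above all non-OB lungs, which held for 1.09% of all probes, although it was well above background in 1 non-OB lung only. The first *Il22* probe was the 1 with all OB lungs below all non-OB lungs, at 4.26 to 4.51 against 4.52 to 5.33. It was well above background in 0 OB and 2 non-OB lungs, and the share of all probes in that order was not counted.

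The 3 pairs of OB and non-OB grafts on a shared slide were compared for the 4 genes detected on all OB arrays. *Il10* was higher by 0.39 in OB on slide 1, and on slides 2 and 3 it was well above background in the OB graft and not in the non-OB graft, with readings 0.60 and 0.72 apart. *Ifng* was higher in OB on slides 2 and 3, by 1.10 and 1.19, and differed by -0.28 on slide 1. The first *Il21* probe was higher in OB on slides 2 and 3 as well, by 0.55 and 1.33, and differed by -0.26 on slide 1. The second *Il21* probe differed by 0.14 on slide 1 and by -1.15 and -0.22 on slides 2 and 3. On slide 2 it was well above background in the non-OB graft only, and on slide 3 in neither graft. *Il4* differed by 0.25 and -0.09 on slides 1 and 2, and on slide 3 it was well above background in the OB graft and not in the non-OB graft. With 3 pairs no exact test over the slides can pass a threshold of 0.05, and none was run.

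**Figure D3:**
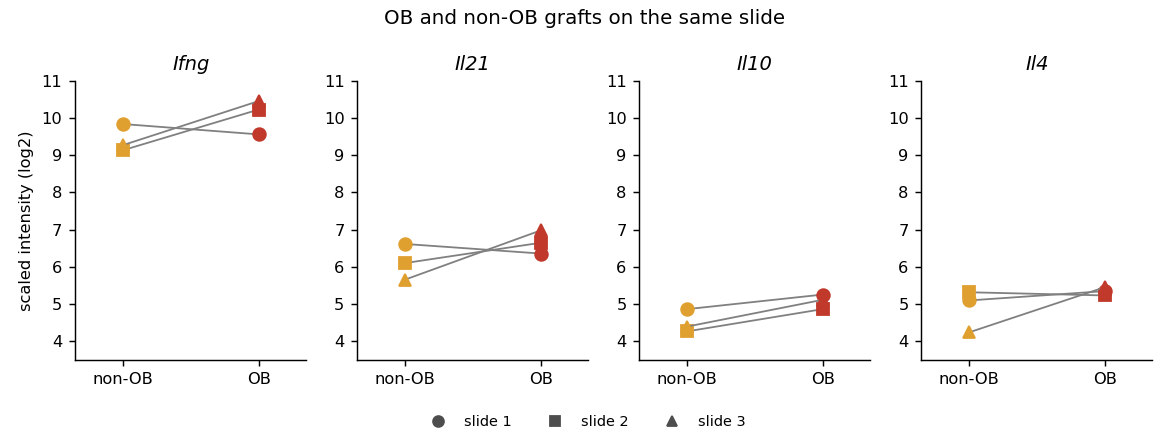
Scaled intensity (log2, vertical axis) of *Ifng*, *Il21* (first probe), *Il10* and *Il4* in the non-OB and OB graft of each shared slide, with a line joining the pair of a slide. The 3 lines rise for *Il10*, 2 of them from non-OB readings that were not well above background, whereas for *Ifng* and *Il21* the line of slide 1 falls, by 0.28 and 0.26.

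Most receptors of the cytokines were not called. Of all probes, 2.72% were called higher and 2.43% lower in OB, and 1.81% higher and 0.710% lower in non-OB. Of 17 receptor genes, 5 rose and 1 fell in OB, whereas 4 rose and none fell in non-OB, and the median log2 fold change of the list was 0.11 in OB beside 0.08 for all probes. The 2 chains of the interferon gamma receptor, *Ifngr1* and *Ifngr2*, changed by -0.03 and 0.08 in OB (SE 0.19 and 0.16). Among the genes that rose in OB were *Il2ra*, the high-affinity chain for interleukin 2, by 2.25 (SE 0.25, adjusted p = 0.0037 from limma), *Il21r* by 2.01 (SE 0.37, adjusted p = 0.0207) and *Il10ra* by 1.68 (SE 0.26, adjusted p = 0.0109). In non-OB *Il2ra* rose by 2.16 and *Il10ra* by 1.30, whereas *Il21r* at 1.75 was not called (adjusted p = 0.0523). The gene that fell was *Il22ra2*, which encodes a soluble receptor that binds interleukin 22, by 2.38 (SE 0.53, adjusted p = 0.04 from limma), and this call was kept without OB 3 and lost without any other single array. Without sham 2, 3 receptor genes were called higher in OB, and the count in non-OB was 2 without non-OB 1, non-OB 3, sham 1 or sham 2.

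Of 15 transcription factors that direct helper T cells, 5 rose in OB and none fell, and 3 rose in non-OB. The shares of all probes called higher were 2.72% in OB and 1.81% in non-OB. *Tbx21*, which encodes T-bet, the factor of type 1 cells, rose by 1.44 in OB (SE 0.26, adjusted p = 0.0177 from limma) and was at 1.12 in non-OB (adjusted p = 0.0666). *Foxp3*, the factor of regulatory T cells, rose by 3.23 (SE 0.23, adjusted p = 0.00105), *Batf* by 1.58 and *Stat4* by 1.47. *Gata3*, the factor of type 2 cells, changed by -0.22 (adjusted p = 0.545), and *Bcl6*, that of follicular helper cells, by -0.67 (adjusted p = 0.126). Without sham 2 the count in OB was 2 and that in non-OB was 1, and without sham 1 the count in OB was 3. Among 15 cytokines and ligands that steer helper T cells, 2 rose in each graft group, *Il12b*, a subunit of interleukins 12 and 23, by 2.94 in OB (SE 0.25) and 2.90 in non-OB, and *Ebi3*, a subunit of interleukin 27, by 1.79 and 1.56, and the count in non-OB was 1 without non-OB 1, non-OB 3 or sham 2. Among 12 further cytokines of T cells, 3 rose in OB, namely *Xcl1* by 3.98 (SE 0.38), *Tnfsf11* by a fitted 2.82 (SE 0.36) and *Fasl* by 1.87 (SE 0.30), and 2 in non-OB. *Tnfsf11* was well above background on only 1 sham array, so that its fitted change rests in part on background readings.

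Genes known to respond to each cytokine were counted in the same fit, where 2.72% of all probes were called higher in OB and 1.81% in non-OB. Of 17 interferon gamma targets, 16 rose in OB and 13 in non-OB, with a median log2 fold change of 2.02 and 1.69 against 0.08 and 0.13 for all probes. The largest rises in OB were in the chemokine genes *Cxcl9*, from a mean of 4.86 in sham to 13.86, and *Cxcl10*, by 5.68, and in *Iigp1*, a GTPase of defence inside cells, by 3.23 (SE 0.29), and *Irf1* was the gene that was not called (0.64, adjusted p = 0.0885). The lists of the other cytokines held fewer calls. In lists of 6 to 16 genes a count of 0 or 1 says little beside the share of all probes called. Of 12 interleukin 17 targets, 1 rose in OB, *Ccl20*, a chemokine for cells with CCR6, by 7.02 (SE 0.70), and in non-OB *Ccl20* and *Lcn2* rose, with 1 of them called without OB 3, non-OB 1 or any 1 of the sham lungs. Of 9 interleukin 22 targets, 1 rose in OB, the acute phase gene *Saa3*, by 4.11 (SE 0.89), and in non-OB *Saa3* and *Lcn2* rose; no interleukin 22 target was called in OB without OB 1, OB 2 or any 1 of the sham lungs, nor in non-OB without non-OB 1 or any 1 of the sham lungs. Of 16 interleukin 4 and 13 targets, 3 were called higher in OB. These were *Itln1*, a lectin of mucous cells, at a fitted 5.44 (SE 0.67), *Ccl22* at least 2.46-fold higher and *Ccl17* at 1.56 (SE 0.25). *Itln1* was well above background on only 1 sham array, so that its fitted change rests in part on background readings. In non-OB *Ccl17* and *Ccl22* were called higher. The median log2 fold change of this list was 1.07 in OB and 0.81 in non-OB, with 13 and 14 genes not called. None of 6 interleukin 10 targets was called in OB. Among them *Bcl3* was higher by 0.94 (adjusted p = 0.0239 from limma) and missed only the 2-fold threshold. In non-OB *Il1rn*, which blocks interleukin 1, rose by 1.46. No gene of that list was called in non-OB without any 1 array other than non-OB 2. Of 6 interleukin 2 targets 1 rose in each graft group, *Il2ra*. Without sham 2 the count of interferon gamma targets was 11 in OB and 9 in non-OB, and that of interleukin 4 and 13 targets was 1 and 0, and without OB 3 the latter was 1 in OB. *Lcn2*, *S100a8* and *S100a9* stand in both the interleukin 17 and the interleukin 22 list.

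**Figure D4:**
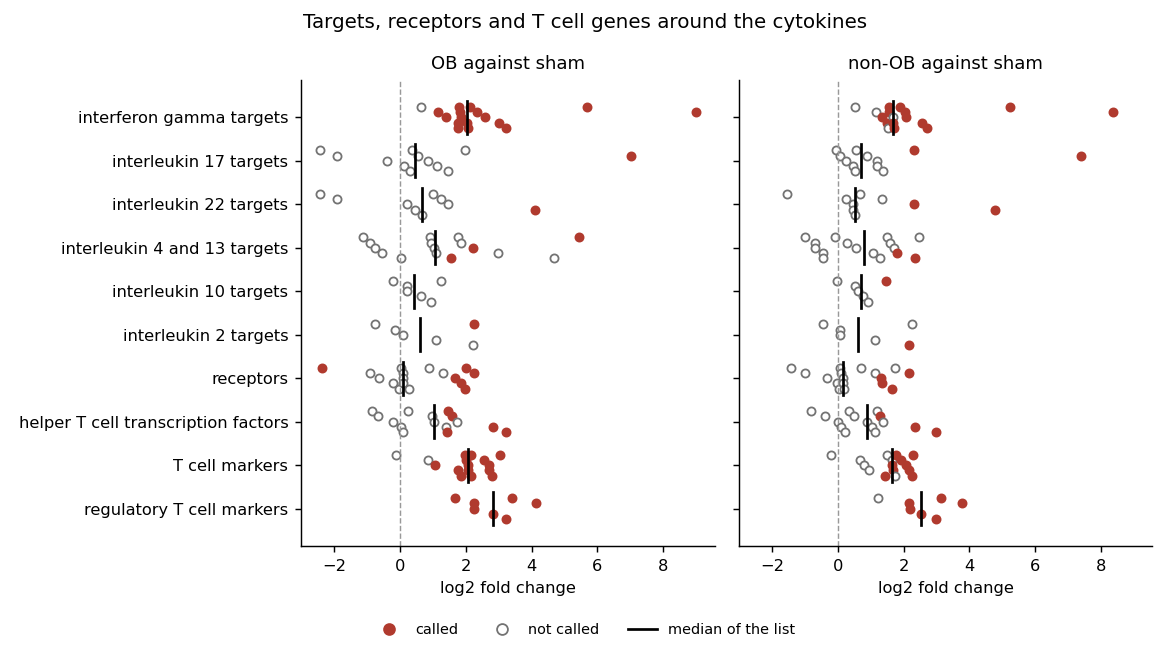
Log2 fold change against sham (horizontal axis) of each gene in 10 gene lists (rows), in OB and in non-OB; a point is a gene, red where called, and the black bar is the median of the list. The interferon gamma targets lie to the right of 0 in both graft groups, whereas the points of the interleukin 17, 22 and 10 lists lie around their medians of 0.45, 0.66 and 0.43 in OB with few calls.

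Markers of T cells and of other cell types were counted in the same way. Beside them, 2.72% of all probes were called higher and 2.43% lower in OB, and 1.81% higher and 0.710% lower in non-OB. Of 16 T cell markers 14 rose in OB and 9 in non-OB, and their summed level on the log2 scale was 16.5 to 16.7 in OB, 15.8 to 16.3 in non-OB and 14.6 to 15.2 in sham. In these whole lungs more cells of a type and more RNA per cell cannot be told apart, and the part of T cell number in the rise of *Ifng*, *Il21* and *Il10* was not tested. Without 1 array the OB count of T cell markers ran from 10 to 13, and it was 10 without OB 3 or sham 2. The non-OB count was 2 without non-OB 1, 3 without sham 2, 4 without non-OB 3 or without sham 1, and 5 without sham 3. All 7 regulatory T cell markers rose in OB and 6 in non-OB, and their summed level was 13.1 to 13.3 in OB, 12.7 to 13.1 in non-OB and 10.1 to 10.4 in sham. Of 9 follicular helper markers 4 rose in OB, with *Pdcd1* at 6.01 (SE 0.55) and *Icos* at 3.47 (SE 0.34), and 3 in non-OB; the count in OB was 2 without OB 3, sham 1 or sham 2, and *Cxcr5*, which defines these cells together with *Bcl6*, changed by 0.34 in OB (adjusted p = 0.608). Of 10 natural killer cell markers, which belong to another source of *Ifng*, 3 rose in OB, led by *Nkg7* at 2.07, and *Gzma* fell by 1.47, while *Ncr1* changed by -0.92 (adjusted p = 0.309), and the summed level overlapped between the groups at 14.3 to 14.6 in OB, 13.9 to 14.3 in non-OB and 14.0 to 14.4 in sham. Of 11 macrophage and monocyte markers, which belong to a source of *Il10*, 4 rose in OB, led by *C1qb* at 3.38, with summed levels of 17.5 to 17.6, 17.3 to 17.6 and 16.8 to 17.1. Of 8 dendritic cell markers, 5 rose in OB and 5 in non-OB, with summed levels of 13.5 to 13.7, 13.3 to 13.7 and 11.8 to 12.7, led in OB by *Xcr1* at least 7.08-fold and *Flt3* at 3.03 (SE 0.23). Of 6 lung endothelial markers, 5 fell in OB and 3 in non-OB, with *Kdr* falling by 2.23 in OB (SE 0.23) and summed levels of 14.8 to 14.9, 14.9 to 15.4 and 16.2 to 16.5; without any 1 of the OB or sham lungs 3 fell in OB, and in non-OB none fell without sham 2 and 1 without OB 2, OB 3, non-OB 1, non-OB 3, sham 1 or sham 3. The part of these cells in the result was not tested. None of 8 B cell, 8 mast cell and basophil, 7 neutrophil and 6 gamma delta T cell markers was called higher in OB. Of 7 plasma cell markers 2 rose in OB and 5 were not called. The 2 were *Jchain* at 4.93 (SE 0.42, adjusted p = 0.00163 from limma) and *Mzb1* at 1.94 (SE 0.40, adjusted p = 0.0289). In non-OB 2 plasma cell markers rose, and without 1 array the count ran from 1 to 3 in each graft group. Of the markers of eosinophils, which respond to *Il5*, 1 of 6 rose, *Prg2*, at least 16.8-fold (limma, adjusted p = 0.00155), and the granule gene *Epx* was detected on no array.

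The genes whose profile over the 9 arrays came closest to each detected cytokine were found by the root mean square of the log2 difference after each profile was centred, among 15242 genes detected on all OB arrays. For *Ifng*, whose own spread by this measure was 1.49, they included *Iigp1* at 0.24, *Cxcr3* at 0.25, *Cxcr6* at 0.26 and *Ubash3a* at 0.27. For *Il21*, with a spread of 2.07, they were *Cd70* at 0.19, *Gm12250* at 0.26, *Pdyn* at 0.34, *Slamf8* at 0.35 and *Mab21l3* at 0.37. For *Il10*, with a spread of 1.11, they were *Sla2*, *Fcgr2b*, *Apol6*, *Lair1* and *Havcr2*, at 0.28 to 0.31. For *Il4*, with a spread of 0.53, they were *Jakmip1*, *Fam78a*, *Gna15*, *Pim2* and *Adora2a*, at 0.17 to 0.23. *Il21*, taken by its first probe, and *Il10* were below the limit of detection in sham, where their profiles follow background signal.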

How the data were processed

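RNA of 9 left lungs, 3 for each of OB, non-OB and sham, was labelled with Cy3 and hybridised to Agilent SurePrint G3 mouse arrays, and the authors read the images with Agilent Feature Extraction 12.0.3.1. The deposited values are processed signal intensities, which the authors' software had subtracted for background and detrended, and the deposited flags say whether a spot was well above background, saturated or an outlier. No spot was saturated. A deposited value table holds the same intensities after the authors' global scaling, and scaling each array to a 2% trimmed mean of 2500 gave its values to within a relative difference of 5e-10. The genome build of the probe design is not given in the sources used here.

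Outlier spots, 53 to 111 per array, were left out, spots of a probe were averaged, and log2 values of 56601 probes were fitted with limma 3.58.1 in R 4.3.3, with a mean for each of the 3 groups (or 1 for all grafts and 1 for sham) and no covariate. P-values were adjusted by Benjamini and Hochberg over all probes. A call needed an adjusted p under 0.05 and a change of at least 2-fold, or the adjusted p alone between OB and non-OB. Of all probes, 32986 were named through RefSeq by accession, and a gene of a list stands by its brightest probe. The rule for naming genes took all cytokine probes, up to 3 called genes of each list with the largest rise or fall, the receptors, factors and targets of called cytokines, and the 5 genes closest in profile to each cytokine detected on all OB arrays; *Gata3*, *Irf1*, *S100a8*, *S100a9*, *Cxcr5*, *Ncr1* and *Epx* were named outside it, after their values were seen. Some genes that the rule takes are not reported here. The cytokines and lists were chosen with earlier results of these data known. *Cxcl11*, *Ly6g* and 3 gamma delta T cell genes of the lists could not be matched to a probe. Replicates are separate mice, 3 per group, which limits the precision. The fit was tested on simulated data, and the alternatives are given in the closing section.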

Additional observations from a re-analysis of the deposited data

Results flagged for a closer look

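Each of the 13 cytokine probes was examined for 1 graft far from the other 5, at a level that chance passes in about 1 in 20 groups, and 2 probes had such a graft. *Il17a* was at 4.87 on the log2 scale in non-OB 1, where it was well above background, and at or below 2.93 in the other 5 grafts. *Il4* was at 4.23 in non-OB 2, where it was not well above background, and at or above 5.09 in the other 5 grafts.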

How the results depend on the processing

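The OB rise of *Ifng*, *Il21* and *Il10* was called in each fit without 1 array (3 genes throughout). In OB against sham 0 genes were called with the slide as a fixed block, and 2 (*Ifng* and *Il21*) by the methods' t-test with Benjamini-Hochberg adjustment and with normexp and quantile normalization. The slide block called 4 of all 56601 probes higher in OB and 0 lower. In non-OB against sham, 1 gene (*Ifng*) was called with normexp and quantile normalization, 0 with the slide as a fixed block and 0 by the methods' t-test with Benjamini-Hochberg adjustment, and without 1 array the count ran from 1 to 3, with *Il21* alone left without sham 2. In non-OB the slide block and the t-test each called 0 of all probes. Without sham 2, 277 of all probes were called higher in non-OB, against 1027 in the main fit. For all grafts against sham, 1 gene (*Ifng*) was called with normexp and quantile normalization, and 2 (*Il21* and *Il10*) with the slide as a fixed block. Between OB and non-OB 0 genes were called in all 22 alternatives. No direction reversed. Normexp started from median spot signals, because mean signals were not analysed here, and adds an offset of 50, which compresses dim probes by construction; its part was not separated from that of quantile normalization. The shift of the median probe in non-OB against sham was 0.13, and -0.02 after quantile normalization. With the replicate number as a block, 3 genes were called in OB against sham and 2 in non-OB against sham. *Il10* was missed in non-OB with adjusted p = 0.0583 in limma. The same fit called 0 genes between OB and non-OB and 3 for all grafts. Arrays of the same number share no animal. OB 2 and non-OB 2 deviated in opposite ways over the probes well above background on all 9 arrays (correlation -0.52). The counts without 1 array for the gene lists were an alternative chosen after seeing the data. Dim signals limit *Il17a*, *Il17f*, *Il22*, *Il5*, *Il13* and *Il2*, for which a change below the detection limit could not be seen.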
